A study of Mus musculus with 32 samples.

Results

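In mice that carry Cx3cr1-CreER and the RiboTag allele RPL22-HA, polyadenylated RNA bound to tagged ribosomes was recovered from the same brains in 2 ways, directly from homogenate and after microglia had been sorted. The direct anti-HA precipitates (HA, n = 4 mice) were set against the anti-HA precipitates of sorted cells (SortIP, n = 4 mice), which makes 8 of the 32 libraries of the series. Libraries were assigned by the column names of the exon count table. Libraries with the same number were taken to come from the same brain, as each brain had been divided into 4 samples. Besides HA and SortIP, each brain gave sorted cells without precipitation (Sort) and a precipitate of homogenate with a mouse IgG1 isotype antibody (IgG), and a second line, Sall1-CreER with the same RPL22-HA allele, was sampled in the same 4 ways.

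All mice of both lines, those of the Sort and IgG groups included, were C57BL/6 and had been gavaged at 4 to 6 weeks with 5 mg of tamoxifen on 4 alternate days. For HA and IgG, whole brain was homogenized in a buffer with cycloheximide and incubated with antibody for 4 h. For SortIP and Sort, brain tissue was first digested with collagenase D and DNase for 20 min at 37 °C, passed through Percoll and sorted by flow cytometry. The labels of the 8 sorted Cx3cr1 libraries disagree with each other. The libraries whose description and column name say SortIP are titled as sorted cells without precipitation, with no antibody given, whereas those named Sort are titled as the precipitate, with the anti-HA antibody. The column names were followed here, and values against the Sort columns stand beside the results. None of the 8 sorted Sall1 libraries has this conflict.

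RiboTag adds an HA epitope to the ribosomal protein RPL22 in cells where Cre has been active, so that the antibody pulls down ribosomes of these cells together with the mRNA they hold. Cx3cr1, the fractalkine receptor, is made in the brain by microglia and by the macrophages of the meninges, perivascular spaces and choroid plexus, and its promoter drives the Cre of this line. Tissue digestion and sorting are known to switch on immediate early genes within minutes to hours, among them Jun and Fos, whose products form the transcription factor AP-1, together with short-lived cytokine mRNAs and the mRNA decay factor Zfp36 (tristetraprolin), which limits them. Cycloheximide stalls ribosomes on mRNA, so the direct route samples ribosome-bound mRNA at the time of homogenization.

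The promoters of Jun, Zfp36, Il1a and Tnf are shown because these genes are known markers of the response to cell isolation. HA came from homogenate of whole brain and SortIP from sorted cells. Isolation and the cells sampled therefore cannot be told apart here, and the cause of differences in these genes was not tested. Each runs from 250 bases before to 50 bases after the start site on the minus strand, as given by RefSeq for GRCm38.p6. They lie at chr4:95052173-95052472 for Jun, chr7:28379179-28379478 for Zfp36, chr2:129309923-129310222 for Il1a and chr17:35201958-35202257 for Tnf. Capitals mark matches, on either strand, to the AP-1 element TGANTCA, the AP-1 octamer variant TGACATCA, the cAMP response element TGACGTCA, the kappaB consensus, the CArG box or the TATA element TATAAA.
Jun: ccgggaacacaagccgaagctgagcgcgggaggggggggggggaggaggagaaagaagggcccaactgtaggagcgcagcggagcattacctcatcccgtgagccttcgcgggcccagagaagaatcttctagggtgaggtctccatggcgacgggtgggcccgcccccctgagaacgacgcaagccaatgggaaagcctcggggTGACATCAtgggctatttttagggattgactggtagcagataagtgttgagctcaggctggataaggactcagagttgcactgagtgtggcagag
Zfp36: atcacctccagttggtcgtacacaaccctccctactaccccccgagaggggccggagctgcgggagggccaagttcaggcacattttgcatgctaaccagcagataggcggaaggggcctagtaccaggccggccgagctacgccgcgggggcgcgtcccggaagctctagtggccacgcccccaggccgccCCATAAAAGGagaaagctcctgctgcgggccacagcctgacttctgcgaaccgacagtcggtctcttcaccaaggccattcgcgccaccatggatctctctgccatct
Il1a: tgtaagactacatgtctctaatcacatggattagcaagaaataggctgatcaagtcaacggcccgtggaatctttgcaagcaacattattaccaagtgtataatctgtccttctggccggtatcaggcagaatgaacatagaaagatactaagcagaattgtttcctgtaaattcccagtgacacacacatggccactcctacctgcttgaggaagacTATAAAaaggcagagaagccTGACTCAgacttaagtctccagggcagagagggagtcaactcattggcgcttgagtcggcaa
Tnf: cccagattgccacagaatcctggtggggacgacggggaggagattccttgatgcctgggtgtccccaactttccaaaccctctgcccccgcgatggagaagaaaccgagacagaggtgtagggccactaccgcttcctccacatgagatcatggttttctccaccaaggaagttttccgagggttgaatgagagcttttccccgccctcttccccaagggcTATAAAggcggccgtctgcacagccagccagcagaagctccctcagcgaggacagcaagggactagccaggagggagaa
The Jun window holds TGACATCA, 45 bases before the start site, and the Zfp36 window holds the CArG box CCATAAAAGG, 58 bases before it. In Il1a, TGACTCA lies 12 bases and TATAAA 32 bases before the start site, and in Tnf, TATAAA lies 29 bases before it. No matches overlap. Among 32851 promoter windows of the same length, 7.81% hold TGANTCA, 3.62% TGACATCA, 1.79% TGACGTCA, 4.51% the kappaB consensus, 1.63% a CArG box and 13.6% TATAAA. Among the windows of genes lower in HA than in SortIP, 4.91% of 2200 hold TGANTCA, against 4.56% of the 6026 windows of all genes tested, and the match is a description of the letters in the window.

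Gene counts per library ran from 286418 to 574671 in HA, from 677423 to 1058912 in SortIP, from 746794 to 1808789 in Sort and from 2200897 to 2470411 in IgG. Counts in exons made up 85.3% to 86.4% of the library total in HA and 71.2% to 75.9% in SortIP. Levels below are counts scaled to 1e6 gene counts of a library (CPM), listed by mouse from 1 to 4, means carry the SD over n = 4 mice, and differences are log2 fold changes of HA over SortIP with their SE from edgeR's quasi-likelihood test with the mouse as a block. CPM are not divided by transcript length, so levels are compared between libraries and not between genes. A gene was called when its p, adjusted over all genes of the comparison by Benjamini and Hochberg's method, was under 0.05. With this block edgeR pooled the spread over genes without limit for 7283 of 7714 genes, so very small adjusted p rest on the spread of all genes, and adjusted p without the block are given beside the lead genes. In bulk RNA, fewer cells of a type and less RNA per cell cannot be told apart.

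Both kinds of library carried microglial transcripts. The 38 homeostatic microglia genes took 15.9% of counts in HA (range 14.7% to 16.6%) and 16.9% in SortIP (16.1% to 17.8%), against 0.530% in IgG. Cx3cr1 itself had 819.6, 679, 814 and 1142 CPM in HA and 2374, 2395, 2556 and 3122 CPM in SortIP, and IgG averaged 77.4 ± 14.5 CPM. Every HA library lay below every SortIP library and far above IgG, with a log2 fold of -1.49 ± 0.17 against SortIP (adjusted p = 2.3e-17) and of 3.87 ± 0.20 against IgG (adjusted p = 6.6e-15). The tagged gene Rpl22 had 251, 275, 264 and 251 CPM in HA and 224, 186, 249 and 189 CPM in SortIP. All HA values lay above all SortIP values, by a log2 fold of 0.42 ± 0.18 (adjusted p = 0.033). That call for Rpl22 was lost in 6 of the alternatives tried, with adjusted p up to 0.20 without mouse 2.

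The difference between the SortIP and Sort columns was checked against the Sall1 line, where title and description name the same group. The exon share averaged 73.0% in SortIP and 65.2% in Sort of the Cx3cr1 line, a difference of 7.72 percentage points. In the Sall1 line it averaged 69.8% in SortIP and 63.1% in Sort, a difference of 6.61 points. A two-sided exact permutation test gave p = 0.0286 in the Cx3cr1 line, the smallest that 4 against 4 allows. In the Sall1 line the same exact permutation test gave p = 0.0571. This test shuffled libraries freely and ignored that SortIP and Sort come from the same mice. The list of nuclear-retained RNAs took 0.129% of counts in SortIP and 0.332% in Sort of the Cx3cr1 line. In the Sall1 line it took 0.133% in SortIP and 0.353% in Sort. Single libraries overlapped, with 0.0969% to 0.147% in SortIP and 0.117% to 0.621% in Sort of the Cx3cr1 line. For the Sall1 line these ranges were 0.0848% to 0.199% and 0.145% to 0.669%. Of 9 members measured, 2 were called lower in SortIP in the Cx3cr1 line and 3 in the Sall1 line. Microglial genes took 16.9% in SortIP and 13.3% in Sort of the Cx3cr1 line, and 16.5% in SortIP and 12.7% in Sort of the Sall1 line. Between SortIP and Sort, 15.8% of 8704 genes were called in the Cx3cr1 line (7.84% higher and 7.96% lower in SortIP) and 15% of 8603 in the Sall1 line (7.37% higher and 7.66% lower). Of 1259 genes called in the Sall1 line and tested in the Cx3cr1 line, 1238 (98.3%) had the same sign in the Cx3cr1 line when its libraries were grouped by column name, and all 705 genes called in both lines had the same sign. Across the 8381 genes tested in both lines, which are not independent replicates, the folds had a Spearman rho of 0.738 and a Pearson r of 0.752. By titles the Cx3cr1 signs would all be the opposite.

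**Figure D1:**
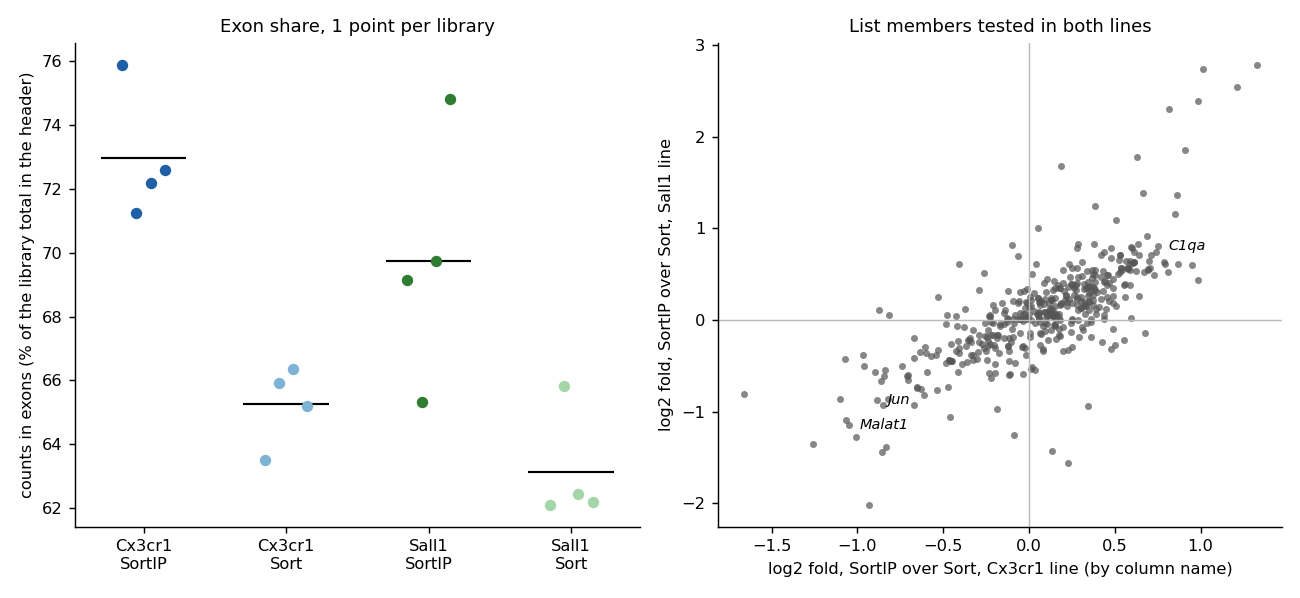
Left, counts in exons as a percent of the library total (y axis), with 1 point per library and a line at the mean, for SortIP and Sort of the Cx3cr1 line (by column name) and of the Sall1 line. Right, log2 fold of SortIP over Sort in the Cx3cr1 line (x axis) and in the Sall1 line (y axis) for the 432 list members tested in both. The 4 Cx3cr1 SortIP libraries lie between 71.2% and 75.9%, above all 4 Sort libraries, and most list members have the same sign on both axes.

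Between HA and SortIP, 5282 of 7714 genes tested were called (68.5%), of which 2473 were higher (32.1% of the tested) and 2809 lower (36.4%) in HA. The groups did not overlap in 4679 genes (60.7%), and the median over all genes was -0.09 on the log2 scale. Counts of list members below have to be read against these shares. A gene passed the low-count filter when it was high enough in either group, so counts and medians over measured members describe those members and not whole lists. Against the Sort columns, 5784 of 8198 genes were called in HA (70.6%), with 2672 higher and 3112 lower. Both comparisons use the same HA libraries. SortIP against Sort gave fewer calls, 1375 of 8704 (15.8%), with 682 higher and 693 lower in SortIP, and this number fell to 216 without mouse 4 and to 496 without mouse 1.

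Immediate early and AP-1 genes were low in HA. Of 39 list members 24 passed the low-count filter, and of these 19 were lower and 3 higher in HA, with a median log2 fold of -2.15. The list took 0.145% of counts in HA (0.134% to 0.159%), 0.836% in SortIP (0.571% to 1.11%), 1.30% in Sort and 0.226% in IgG. Jun, the AP-1 subunit encoded at chr4:94715727-94718913 on the minus strand (mm9), had 55.7, 67.3, 59.7 and 73.3 CPM in HA and 1805, 1303, 2009 and 1107 CPM in SortIP. The groups were far apart, by a log2 fold of -4.50 ± 0.21 (adjusted p = 1.2e-93 with the mouse block and 5.7e-22 without). Jun averaged 3320.4 ± 1764 CPM in Sort and 92.9 ± 34.4 CPM in IgG, so that HA lay 5.41 ± 0.24 log2 units below Sort (adjusted p = 8e-22) and did not differ detectably from IgG (log2 fold -0.09 ± 0.23, adjusted p = 0.76).

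Fos, the partner of Jun in AP-1, showed the widest gap among the immediate early genes, with 10.4, 6.12, 4.59 and 3.49 CPM in HA and 1052, 508, 1304 and 341 CPM in SortIP. Its log2 fold was -6.88 ± 0.31 (adjusted p = 1e-102, and 7.8e-05 without the block), and HA was also below IgG, which averaged 53.5 ± 17.6 CPM (log2 fold -2.53 ± 0.41, adjusted p = 6.2e-06). Egr1, a zinc finger transcription factor, had 43.5, 39.8, 29.8 and 24.4 CPM in HA and 597, 446, 635 and 282 CPM in SortIP. Its HA values lay below SortIP (log2 fold -3.72 ± 0.24, adjusted p = 1.1e-53) and below the 248 ± 7.93 CPM of IgG. Dusp1, the phosphatase that switches off stress-activated MAP kinases, had 8.70, 6.12, 6.88 and 6.98 CPM in HA and 421, 176, 429.7 and 125 CPM in SortIP (log2 fold -5.28 ± 0.32, adjusted p = 1.8e-58). Without the block the adjusted p of Dusp1 was 0.00021. Within SortIP, mice 1 and 3 were the high ones and mice 2 and 4 the low ones for Jun, Fos, Egr1 and Dusp1 alike, whereas the HA values of Jun and Dusp1 were close together.

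In the same list 3 members went the other way, and with a minimum count of 30 the number called higher was 0. Nr4a1 was higher in HA by a log2 fold of 2.60 ± 0.30 (adjusted p = 1.5e-17). Arc, a synaptic protein induced by activity in neurons, had 38.3, 79.5, 29.8 and 45.4 CPM in HA and 2.21, 5.07, 2.83 and 1.48 CPM in SortIP, a log2 fold of 4.06 ± 0.43 (adjusted p = 4.3e-20). All HA libraries were above SortIP, but Arc averaged 298 ± 92.7 CPM in IgG, above HA (log2 fold of HA over IgG -2.26 ± 0.22, adjusted p = 1.6e-09). Over the list, HA against IgG had 6 members higher and 12 lower of 31 measured (of all 10021 genes 67.1% were called there, 29.3% higher and 37.7% lower), with a median of -0.35.

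The list of mRNA decay factors took 0.0275% of counts in HA and 0.229% in SortIP. Of 11 measured members 10 were lower in HA and 1 did not pass, with a median of -2.64, where 36.4% of all genes were called lower. Some, such as Rc3h2 with 2 counts in HA and 120 in SortIP, passed the filter only through SortIP, where they are high. This count and median therefore describe the members that passed, and with a minimum count of 30 the number called lower was 5. Zfp36, the AU-rich element binding protein at chr7:29161803-29164247 on the minus strand (mm9), had 40.0, 33.6, 13.8 and 6.98 CPM in HA and 1555, 1061, 1543 and 681 CPM in SortIP. The groups were separate, with a log2 fold of -5.56 ± 0.25 (adjusted p = 1.3e-107 with the block and 1.2e-09 without). HA lay near the 23.5 ± 6.90 CPM of IgG (log2 fold 0.44 ± 0.36, adjusted p = 0.28) and 5.98 ± 0.27 log2 units below the 1819 ± 705 CPM of Sort. Its relatives Zfp36l1 and Zfp36l2 bind the same kind of element. Zfp36l1 had 59.2, 39.8, 52.8 and 34.9 CPM in HA and 466, 398, 528 and 372 CPM in SortIP (log2 fold -3.10 ± 0.22, adjusted p = 1.3e-42). Zfp36l2 had 3.48, 9.18, 2.29 and 14.0 CPM in HA and 138, 131, 275 and 198 CPM in SortIP (log2 fold -4.71 ± 0.33, adjusted p = 1.1e-43). Neither overlapped between the groups. Zfp36l1 was above IgG in HA, where IgG averaged 24.3 ± 4.80 CPM (log2 fold 1.36 ± 0.28, adjusted p = 0.00013). Zc3h12a (regnase-1), a ribonuclease that cuts cytokine mRNAs, Rc3h1 (roquin-1), which binds stem-loops in them, and Pan3, a subunit of a deadenylase, were also lower, with log2 folds of -2.10 ± 0.40, -2.67 ± 0.46 and -2.64 ± 0.46.

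The inflammatory cytokine mRNAs Il1a, Tnf and Il6 were at or near 0 in HA. Of 27 listed cytokines only 8 passed the filter, and 4 of them were lower and 1 higher in HA, with a median of -0.61. Il1a, the alarmin interleukin-1 alpha at chr2:129125346-129135708 on the minus strand (mm9), had 1.74, 0, 0 and 0 CPM in HA and 35.3, 25.4, 43.4 and 23.6 CPM in SortIP. The HA value comes from 1 count in 1 library, against 119 counts in SortIP, and the level in SortIP over that in HA was 53.3 (95% counting interval 9.38 to 2122). The test gave an adjusted p of 7.1e-13 with the block and 5.4e-09 without, and Il1a averaged 53.1 ± 18.1 CPM in Sort and 1.07 ± 0.505 CPM in IgG. Tnf, tumour necrosis factor at chr17:35336312-35338952 on the minus strand (mm9), had 0 counts in all 4 HA libraries and 34.2, 23.3, 52.9 and 10.3 CPM in SortIP. It did not pass the filter for the test, and against a floor of 3 counts over the 4 HA libraries it was at least 17.5-fold lower in HA. In the Sort columns Tnf averaged 53.8 ± 30.1 CPM, and there it passed the filter and was called (adjusted p = 2.4e-13). Il6, another inflammatory cytokine, likewise had 0 counts in HA, against 55 in SortIP, at least 8.21-fold lower.

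Chemokines were split. Of 11 measured members 6 were lower and 4 higher in HA, with a median of -0.69. Ccl3, which attracts monocytes and lymphocytes, had 3.48, 6.12, 25.2 and 6.98 CPM in HA and 412, 166, 482 and 146 CPM in SortIP (log2 fold -4.86 ± 0.30, adjusted p = 2.7e-56). Its close relative Ccl4 had 33.1, 15.3, 32.1 and 27.9 CPM in HA and 324, 119.7, 467 and 88.6 CPM in SortIP (log2 fold -3.08 ± 0.26, adjusted p = 1.4e-31). Without the block the adjusted p were 0.0012 for Ccl3 and 0.0088 for Ccl4. For both, SortIP of mice 1 and 3 was again above that of mice 2 and 4, and all HA libraries were below all SortIP libraries. Ccl2, the main ligand of CCR2, had 1.74, 0, 2.29 and 0 CPM in HA and 57.4, 20.3, 60.4 and 20.7 CPM in SortIP, that is 2 counts against 150, and SortIP over HA was 33.6 (95% counting interval 9.13 to 279.8). Ccl12, a second CCR2 ligand of the mouse, differed less, with 48.7, 55.1, 52.8 and 55.9 CPM in HA and 229, 162, 331 and 180.1 CPM in SortIP (log2 fold -1.97 ± 0.22, adjusted p = 5.4e-18). Cxcl10, an interferon-induced ligand of CXCR3, had 20.9, 9.18, 20.6 and 6.98 CPM in HA and 78.4, 48.7, 103 and 39.9 CPM in SortIP (log2 fold -2.07 ± 0.32, adjusted p = 3e-10). Ccl4 and Ccl12 were above IgG in HA, by log2 folds of 3.54 ± 0.43 and 3.72 ± 0.33, and so were 8 of the 10 chemokines tested there, against 29.3% of all genes.

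Ccl5, which attracts T cells, was higher in HA, with 76.6, 67.3, 156 and 66.3 CPM against 43.1, 32.5, 79.3 and 29.5 CPM in SortIP. The groups overlapped, since mouse 3 was high in both, and within each mouse HA was above SortIP (log2 fold 1.10 ± 0.23, adjusted p = 8.1e-06). With the GC and length trend described below taken out, this was 0.20 (adjusted p = 0.43).

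Genes of NF-kappaB signalling and of feedback on it were mostly lower, 13 of 20 measured members against 2 higher, with a median of -0.997. Nfkbia, the inhibitor that holds NF-kappaB in the cytoplasm, had 191, 303, 147 and 171 CPM in HA and 1087, 501, 1005 and 582 CPM in SortIP (log2 fold -1.83 ± 0.19, adjusted p = 9.9e-21). Tnfaip3 (A20), a ubiquitin-editing enzyme of the same feedback, had 3.48, 9.18, 2.29 and 6.98 CPM in HA and 56.3, 53.8, 37.8 and 44.3 CPM in SortIP (log2 fold -3.12 ± 0.43, adjusted p = 3.9e-12). Neither overlapped between the groups. Of 17 members tested against IgG, 14 were higher in HA and 3 did not pass, where 29.3% of all genes were called higher. Gpr84, a receptor for medium-chain fatty acids of activated microglia, lay between SortIP and IgG, with 118, 73.4, 91.8 and 55.9 CPM in HA, 300.5, 322, 272 and 252 CPM in SortIP and 2.77 ± 1.87 CPM in IgG (log2 fold of HA over SortIP -1.62 ± 0.20, adjusted p = 1.1e-14).

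Feedback regulators of MAP kinase and cytokine receptors had 7 lower and 2 higher members of 11, with a median of -0.96. Rgs1, a brake on G-protein signalling from chemokine receptors, had 0, 6.12, 2.29 and 0 CPM in HA and 211, 84.2, 205 and 84.1 CPM in SortIP. This is 3 counts against 548, a level in SortIP 81.8 times that in HA (95% counting interval 27.8 to 397.7). Rgs1 passed the filter only through SortIP, where it is high. Rgs2, another member of that family, was lower by a log2 fold of -3.70 ± 0.20 (adjusted p = 7.2e-77), with means of 151 ± 18.6 CPM in HA and 2159 ± 536 CPM in SortIP. Socs3, an inhibitor of cytokine receptor signalling, had 5.22, 3.06, 9.18 and 14.0 CPM in HA and 217, 150.1, 164 and 75.3 CPM in SortIP (log2 fold -4.28 ± 0.33, adjusted p = 3.3e-36).

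**Figure D2:**
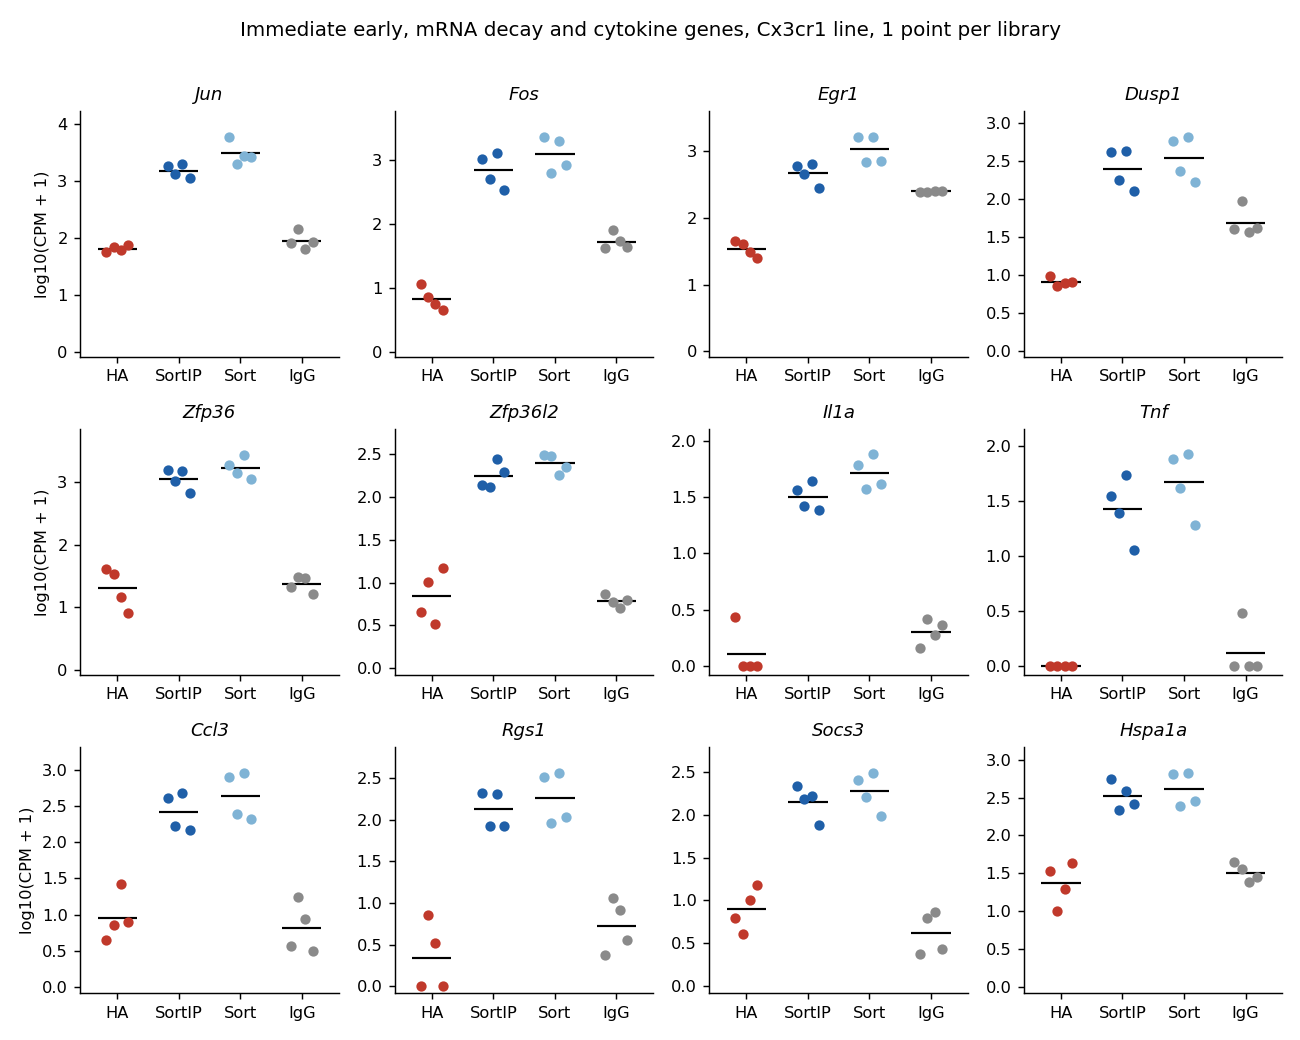
Levels of 12 genes in the Cx3cr1 line as log10(CPM + 1) (y axis), with 1 point per library in the order of mice 1 to 4 and a line at the mean, for HA, SortIP, Sort and IgG (x axis). All HA points lie below all SortIP points for every gene shown, HA lies below IgG for Fos, Egr1 and Dusp1 and overlaps it for Jun, and the points of mice 1 and 3 stand above those of mice 2 and 4 in SortIP for Fos, Dusp1, Ccl3 and Rgs1.

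Heat shock proteins and chaperones were lower in 17 of 32 measured members and higher in 5, with a median of -0.79. Hspa1a, an inducible cytosolic chaperone, had 33.1, 9.18, 18.4 and 41.9 CPM in HA and 557, 217, 382 and 258 CPM in SortIP (log2 fold -3.74 ± 0.25, adjusted p = 5e-48). It shares nearly all of its sequence with Hspa1b, so the split of reads between these copies is uncertain. Hspa5 (BiP), the chaperone of the endoplasmic reticulum, had 83.5, 73.4, 71.1 and 59.4 CPM in HA and 826, 622, 831 and 771 CPM in SortIP (log2 fold -3.28 ± 0.21, adjusted p = 1.1e-52). Both were near their IgG levels of 31.9 ± 8.98 and 90.3 ± 35.5 CPM in HA. Once the GC and length trend was taken out, a fit in which 61.9% of all genes were called, the list had 11 members higher and 11 lower with a median of 0.22, so the balance of the heat shock list turned while Hspa1a (-4.39) and Hspa5 (-2.69) stayed low. Targets of p53 showed no common direction (5 higher, 5 lower and 3 not passed of 13, median -0.04). Glucocorticoid targets had 3 higher and 9 lower of 14, with a median of -0.72.

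**Figure D3:**
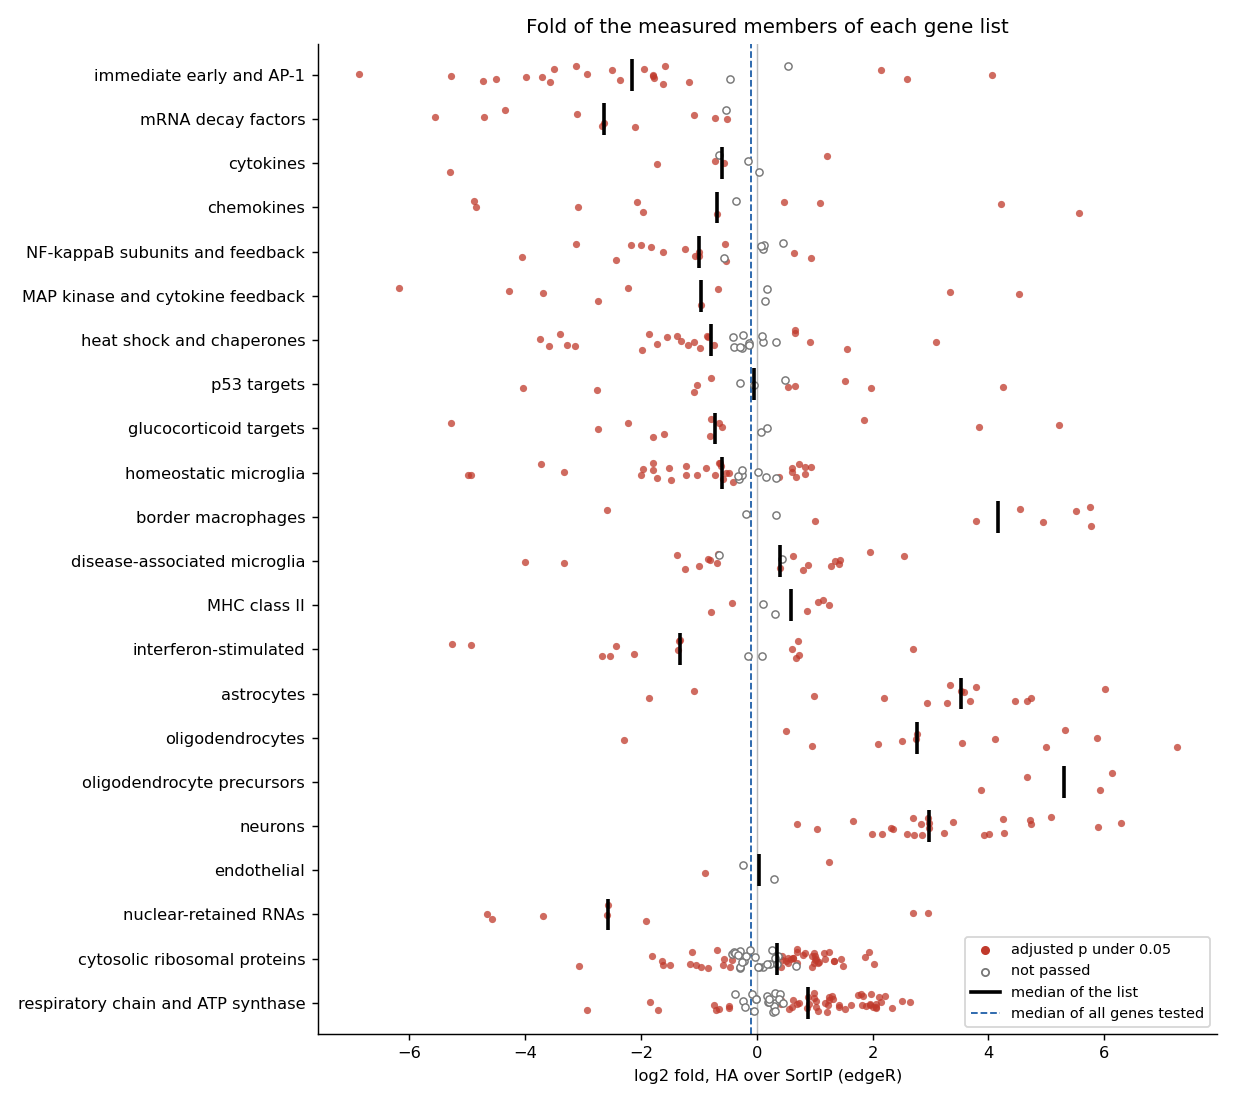
Log2 fold of HA over SortIP (x axis) for the measured members of each gene list (rows), with filled points for an adjusted p under 0.05, open points for the rest, a black bar at the list's median, a grey line at 0 and a dashed line at the median of all genes tested (-0.09). Lists with under 4 measured members are not drawn. The medians of the immediate early (-2.15), mRNA decay (-2.64) and nuclear-retained (-2.58) lists lie to the left. Those of border macrophages (4.17), astrocytes (3.52) and neurons (2.97) lie to the right. All these lists hold members that passed the filter only through the group where they are high.

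The fold of HA over SortIP moved with the base composition of the transcript. Over the 7696 genes with a known GC content (99.8% of those tested), the fold and the GC content had a Spearman rho of 0.525, and over all 7714 genes the fold and transcript length had one of -0.26. Genes are not independent replicates. In the lowest of 10 equal bins by GC content (31.2% to 43.0%) the median fold was -1.97, and 637 of 770 genes (82.7%) were called lower in HA. In the highest bin (58.9% to 71.3%) it was 0.89, and 465 of 770 (60.4%) were called higher. In HA against IgG, a comparison that uses the same HA libraries, the rho was 0.15 for GC content and -0.366 for length. With GC and length fitted as an offset, an alternative added after the data had been seen, 2380 of 7696 genes were higher and 2382 lower (61.9% called). Of the 5282 calls 3640 (68.9%) were made in the same direction there and 160 in the opposite one. Jun, Zfp36, Fos, Egr1 and Dusp1 lie between 51.9% and 55.5% GC, in bins whose median fold was 0.23 to 0.385, and their log2 folds with the offset were -4.86, -5.82, -6.93, -3.90 and -5.58. The immediate early list then had 3 higher and 21 lower members (median -2.51) and the mRNA decay list 8 lower and 3 not passed (median -2.09). Il1a has a GC content of 41.3% and its fitted log2 fold was -3.86 with the offset (adjusted p = 7.2e-05). Rc3h1 was no longer called (-0.57, adjusted p = 0.37).

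**Figure D4:**
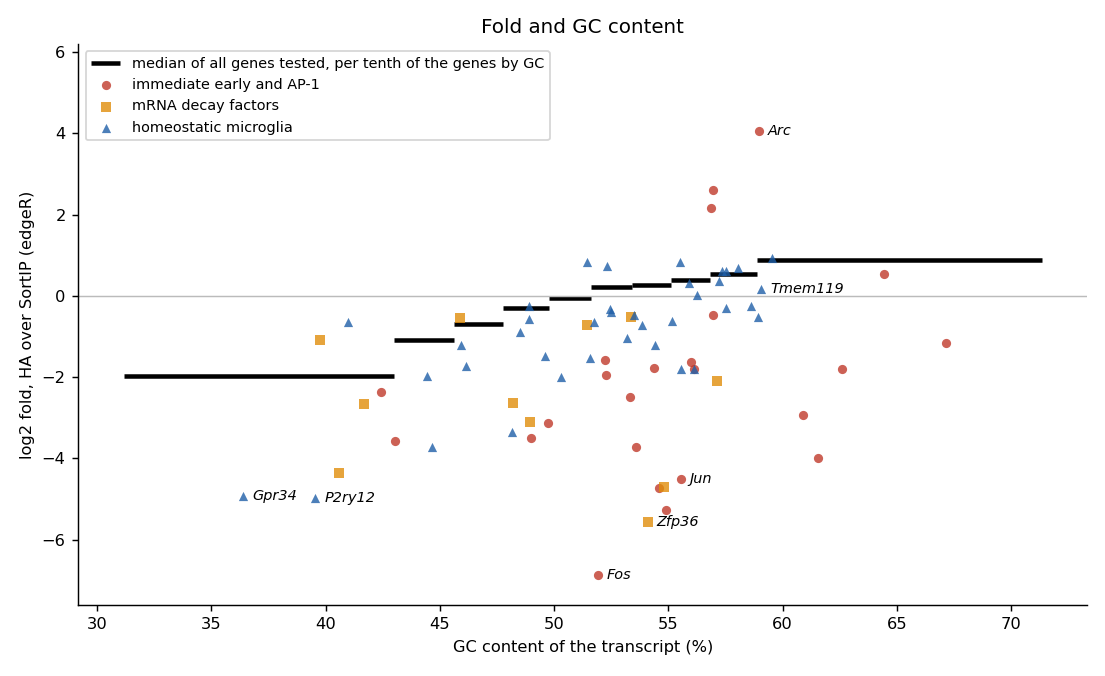
Log2 fold of HA over SortIP (y axis) against the GC content of the transcript in percent (x axis). Black bars are the medians of all genes tested in each of 10 equal bins by GC content, circles immediate early and AP-1 genes, squares mRNA decay factors and triangles homeostatic microglia genes. The bars climb with GC content, from -1.97 to 0.89, while Jun, Zfp36 and Fos lie far below the bar at their GC content and Gpr34 and P2ry12, at low GC content, lie below theirs too.

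Homeostatic microglia genes differed among themselves. Of 38 measured genes 23 were lower and 8 higher in HA, with a median of -0.60, and of 37 tested against IgG 35 were above it in HA and 1 below. P2ry12, the ADP receptor that steers microglial processes, had 179, 91.8, 94.1 and 69.8 CPM in HA and 3753, 3268, 3739 and 4077 CPM in SortIP. The groups were far apart (log2 fold -4.98 ± 0.21, adjusted p = 2e-121), and HA was above the 74.9 ± 9.83 CPM of IgG by a log2 fold of only 0.92 ± 0.24 (adjusted p = 0.0015). P2ry12 has a GC content of 39.6%, and with the offset its log2 fold was -2.93 (adjusted p = 6.6e-41). The orphan receptor Gpr34 and the nucleotide receptor P2ry13 showed the same, with log2 folds of -4.93 ± 0.25 and -3.72 ± 0.21, and of -2.35 and -2.69 with the offset. Siglech, a sialic acid binding lectin, had 616, 679, 631 and 450.4 CPM in HA and 2502, 2232, 3075 and 2502 CPM in SortIP (log2 fold -1.996 ± 0.17, adjusted p = 8.8e-29). Its HA libraries lay between SortIP and the 49.0 ± 6.04 CPM of IgG.

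C1qa, a chain of complement C1q, went the other way, with 26295, 31229.9, 24986 and 26866 CPM in HA and 16995, 14330.1, 15490.4 and 15513 CPM in SortIP. All HA libraries were higher (log2 fold 0.93 ± 0.16, adjusted p = 2e-08), but its GC content is 59.5% and with the offset the fold was -0.13 (adjusted p = 0.40). Tyrobp, the signalling adaptor of Trem2, was higher by 0.84 ± 0.17 (adjusted p = 1.1e-06) and likewise not with the offset (-0.22, adjusted p = 0.18). With the offset 27 of the 38 genes were lower and 3 higher. Tmem119, a microglial surface protein named here after its values were seen, had 3762, 2738, 4155 and 5963 CPM in HA and 3925, 4201, 3469.6 and 4062 CPM in SortIP, groups that overlapped (log2 fold 0.16 ± 0.16, adjusted p = 0.39).

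Border macrophage genes took a larger share of counts in HA. The whole list of 21 genes took 0.0929% in HA (0.0788% to 0.107%), 0.0520% in SortIP (0.0457% to 0.0573%), 0.0534% in Sort and 0.00825% in IgG. Of the 10 members that passed the filter 7 were higher and 1 lower, with a median of 4.17, but members such as Pf4 and Clec10a passed only through HA, where they are high. Without the filter 12 members were called higher. Pf4, a chemokine of platelets and border macrophages, had 254, 312, 259 and 175 CPM in HA and 4.42, 4.06, 5.67 and 10.3 CPM in SortIP. All HA libraries were far above all SortIP libraries (log2 fold 5.52 ± 0.28, adjusted p = 3.1e-86) and above IgG at 2.98 ± 1.79 CPM. Clec10a, a lectin of macrophages and dendritic cells, had 17.4, 39.8, 59.7 and 27.9 CPM in HA and 0, 0, 0 and 2.95 CPM in SortIP (adjusted p = 9.2e-20). Its SortIP level comes from 1 library, and the groups did not overlap. The carbonyl reductase Cbr2 and the haemoglobin scavenger receptor Cd163 were higher by 4.94 ± 0.41 and 4.55 ± 0.51. Ms4a6b was the exception, lower by a log2 fold of -2.58 ± 0.34 (adjusted p = 3e-13), or -1.01 with the offset (adjusted p = 0.012).

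Genes of disease-associated microglia had 10 higher and 9 lower members of 21, with a median of 0.40, and 8 higher and 5 lower with the offset (median 0.24). Apoe, the lipid carrier, had 14902, 13279, 13492 and 13215 CPM in HA and 2448, 1951, 3903 and 2288 CPM in SortIP. The groups did not overlap (log2 fold 2.55 ± 0.17, adjusted p = 2.5e-48), the fold stayed at 1.38 with the offset (adjusted p = 4.4e-18), and IgG averaged 1677 ± 242 CPM. B2m, the light chain of MHC class I, had 517, 459, 422 and 168 CPM in HA and 6302, 5224, 8112 and 6872 CPM in SortIP (log2 fold -4.0 ± 0.19, adjusted p = 2.2e-92), and it remained lower with the offset (-2.72).

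MHC class II genes had 4 higher and 2 lower members of 8 measured (median 0.59). H2-Aa, the alpha chain of I-A, had 317, 545, 835 and 388 CPM in HA and 140.3, 144, 435 and 282 CPM in SortIP. The groups overlapped, mouse 3 was highest in both, and within each mouse HA was above SortIP (log2 fold 1.24 ± 0.18, adjusted p = 4.2e-11). Without the mouse block the log2 fold was 1.17 (adjusted p = 0.075), and Cd74, H2-Eb1 and H2-Ab1 lost their calls in the same way. Reads of the H2 genes may be shared between family members, so their values are uncertain.

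Interferon-stimulated genes had 5 higher and 9 lower members of 16, with a median of -1.33. Trim30a, which restrains inflammatory signalling in the mouse, had 8.70, 0, 0 and 0 CPM in HA and 125, 101, 151 and 149 CPM in SortIP (log2 fold -5.26 ± 0.40, adjusted p = 7.7e-38). Trim30a passed the filter only through SortIP, where it is high. It lies in the lowest bin by GC content, where the median fold was -1.97. Ifi27l2a, an interferon-induced gene, had 355, 471, 633 and 415 CPM in HA and 54.1, 59.8, 144 and 67.9 CPM in SortIP (log2 fold 2.70 ± 0.19, adjusted p = 2e-42). For either gene all libraries of the groups were apart, in opposite directions. With the offset 7 members were lower and 2 higher, and the lowest log2 fold of the list was -3.745.

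**Figure D5:**
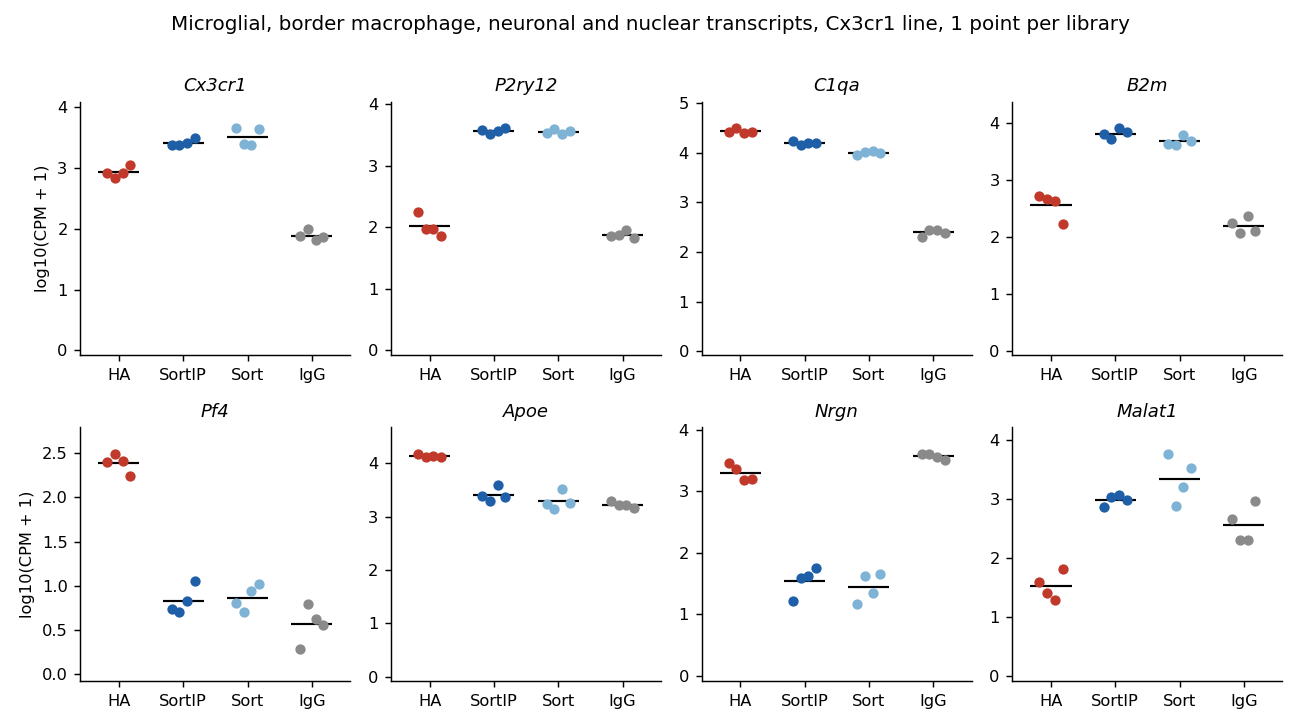
Levels of 8 genes in the Cx3cr1 line as log10(CPM + 1) (y axis), with 1 point per library in the order of mice 1 to 4 and a line at the mean, for HA, SortIP, Sort and IgG (x axis). P2ry12 in HA lies close to IgG and far below SortIP, C1qa, Pf4 and Apoe lie highest in HA, and Nrgn in HA lies much nearer to IgG than to SortIP.

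Many transcripts of neurons and macroglia, cells not known to express Cx3cr1, were higher in HA than in SortIP and lower than in IgG. The list of 34 neuronal genes took 0.516% of counts in HA (0.394% to 0.641%), 0.0613% in SortIP (0.0538% to 0.0664%) and 2.29% in IgG. Of these genes 26 passed the filter, all higher in HA than in SortIP (median 2.97), where 32.1% of all genes were called higher. Some passed only through HA, where they are high, so this count and median describe the members that passed. With a minimum count of 30 the number called higher was 13. The 33 tested against IgG were lower in HA (37.7% of all genes were called lower there). Nrgn, the calmodulin-binding protein neurogranin of postsynaptic neurons, had 2852, 2291, 1528 and 1557 CPM in HA and 15.5, 37.5, 41.6 and 54.6 CPM in SortIP (log2 fold 5.89 ± 0.22, adjusted p = 3.7e-144). IgG averaged 3682 ± 364 CPM, above HA (log2 fold of HA over IgG -0.48 ± 0.16, adjusted p = 0.011).

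Astrocyte genes were higher in 13 of 15 measured members and lower in 2, and oligodendrocyte genes higher in 12 of 13 and lower in 1, with medians of 3.52 and 2.77. Here too some members passed the filter only through HA, so these counts and medians describe the members that passed. With a minimum count of 30 the number of oligodendrocyte genes called higher was 6. Glul and Slc1a3, which clear and take up glutamate in astrocytes, and Enpp2 were the lower ones, by log2 folds of -1.86, -1.09 and -2.30, and with the offset Slc1a3 was no longer called (-0.345, adjusted p = 0.10). Only 4 of the 16 oligodendrocyte precursor genes passed the filter, which they did through HA, so their count is not read. Against IgG, 20 of 24 astrocyte genes were lower in HA and 4 did not pass, and 12 of 18 oligodendrocyte genes were lower and 1 higher. Mbp, myelin basic protein, had 1310.3, 1202, 718 and 1117 CPM in HA and 63.0, 62.9, 62.3 and 81.2 CPM in SortIP (log2 fold 4.11 ± 0.20, adjusted p = 2.2e-91), with 3333 ± 645 CPM in IgG. S100b, a calcium-binding protein of astrocytes, had 637, 823, 525 and 614 CPM in HA and 7.73, 12.2, 12.3 and 10.3 CPM in SortIP (log2 fold 6.02 ± 0.25, adjusted p = 1.5e-125), and at 682 ± 38.3 CPM in IgG it did not differ detectably from HA (log2 fold 0.32 ± 0.17, adjusted p = 0.093). Endothelial genes had 1 higher and 1 lower member of 4. Of the monocyte, neutrophil and lymphocyte lists 1 member each passed the filter, namely Nr4a1 (2.60 ± 0.30), which is also an immediate early gene, Csf3r (-1.27) and Cd79b (-0.83).

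Genes were also classed in other mice, by Sort against IgG in the Sall1 line, which shares no library with the comparison. Of 1405 genes at least 2 log2 units higher in Sall1 Sort than in Sall1 IgG (the sorted class), 108 were higher and 1014 lower in Cx3cr1 HA than in SortIP, with a median of -1.23. Of 1086 genes at least 2 log2 units lower there (the homogenate class), 972 were higher and 17 lower, with a median of 2.67, and 960 of the 972 had a lower mean in HA than in IgG. Some genes of the homogenate class, such as Gng4, passed the filter only through HA, where they are high. Some of the sorted class, such as Casp1, passed only through SortIP. These counts and medians therefore describe the genes that passed. The homogenate class was picked for high levels in Sall1 IgG, so the 960 are a description. The 5207 genes in neither class had 1385 higher and 1777 lower, with a median of -0.12. The sorted class took 36.8% of counts in HA, 48.8% in SortIP and 3.40% in IgG, and the homogenate class 11.8% in HA, 3.11% in SortIP and 40.1% in IgG. The 10 genes with the largest increase (Gng4, Nkx6-2, Pcp2, 1500009C09Rik, Bex1, Pllp, Sncb, Fbll1, Ly6h and Hrh3) all belong to the homogenate class. Gng4, a G-protein subunit, had 33.1, 67.3, 50.5 and 52.4 CPM in HA, 0 counts in SortIP and 56.4 ± 16.9 CPM in IgG. Within the sorted class the largest increases were those of Pf4, Ifi27l2a, Grap (2.62), Apoe and Limd2 (2.01). Among the largest decreases were Fos and genes without a count in HA, such as Casp1, the protease that matures interleukin-1 beta, which had 0 counts in HA and 37.6, 34.5, 48.2 and 45.8 CPM in SortIP and was at least 22.4-fold lower. Casp1 passed the filter only through SortIP. It lies in the lowest bin by GC content, where the median fold was -1.97 and 82.7% of genes were called lower. The part that transcripts also found in IgG have in the immediate early and cytokine results was not tested. Relative to IgG, HA lay lower for Fos and Egr1 and higher for Zfp36l1 and Ccl4, and no difference was detectable for Jun and Zfp36.

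The list of nuclear-retained RNAs was low in HA. It also holds small nucleolar RNA host genes such as Snhg1 and Snhg12, so its name need not hold for every member. Of 8 measured members 6 were lower and 2 higher than in SortIP (median -2.58), and 7 of the 8 tested against IgG were lower in HA. The 2 higher ones, Meg3 and Snhg11, are also in the neuronal list. With the offset 4 were lower and 2 higher (median -1.08). The list took 0.0200% of counts in HA, 0.129% in SortIP, 0.332% in Sort and 0.163% in IgG. Malat1, a long noncoding RNA of nuclear speckles, had 38.3, 24.5, 18.4 and 62.8 CPM in HA and 719, 1082, 1157 and 961 CPM in SortIP, groups that were far apart (log2 fold -4.65 ± 0.23, adjusted p = 3.8e-86). With the offset its fold was -2.96 (adjusted p = 2.7e-28).

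mRNAs of ribosomal proteins and of the respiratory chain were more often higher than lower in HA. Among 71 measured genes of cytosolic ribosomal proteins 33 were higher, 15 lower and 23 not passed (median 0.35), and these took 2.93% of counts in HA, 1.91% in SortIP and 1.40% in IgG. Many of them have near-identical pseudogenes, so single values are uncertain. Rpl14 had 2066, 2398, 2505 and 2228 CPM in HA and 659, 513, 631 and 673 CPM in SortIP (log2 fold 2.02 ± 0.17, adjusted p = 2.7e-30). With the offset the balance of the ribosomal list turned, to 12 higher and 29 lower (median -0.21). Among 71 measured genes of the respiratory chain and ATP synthase 44 were higher and 8 lower (median 0.89), and 35 were higher and 9 lower with the offset. Uqcr10, a small subunit of complex III, had 724, 688, 957 and 1152 CPM in HA and 168, 134, 159.6 and 137 CPM in SortIP (log2 fold 2.65 ± 0.18, adjusted p = 6.2e-45). For both Rpl14 and Uqcr10 the groups did not overlap, and the respiratory list took 2.25% of counts in HA, 1.09% in SortIP and 2.42% in IgG.

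Whether HA differed from SortIP by another amount in the Sall1 line was tested as an interaction over 16 libraries, with 1545 genes higher and 1780 lower in the Cx3cr1 line of 10290 tested (32.3% called). The immediate early list was split there, with 6 higher, 6 lower and 16 not passed of 28, and its share of counts was 0.144% in HA and 0.820% in SortIP of the Sall1 line. For Jun the fold did not differ detectably between lines (Cx3cr1 minus Sall1 -0.52 ± 0.28, adjusted p = 0.15), and Sall1 HA averaged 66.0 ± 14.2 CPM and Sall1 SortIP 1375 ± 729.6 CPM. Nor did it for Zfp36 (2.44 ± 1.04, adjusted p = 0.13), Il1a (1.99 ± 1.68, adjusted p = 0.39) or Tnf (-0.89 ± 1.65, adjusted p = 0.72), whose wide errors leave room for differences of several log2 units. The fold of Fos was more negative in the Cx3cr1 line, by -2.69 ± 0.46 (adjusted p = 8.2e-07), where Sall1 HA averaged 31.2 ± 13.2 CPM and Sall1 SortIP 857 ± 754 CPM. Egr1 (-1.97 ± 0.29) and Dusp1 (-2.07 ± 0.48) differed in the same direction, and Ccl3 (3.39 ± 0.64) and Zfp36l2 (2.36 ± 0.69) in the opposite one.

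Microglial genes differed between the lines. In this test 35 of 38 were higher in the Cx3cr1 line and 3 did not pass (median 3.36). They took 15.9% of counts in HA and 16.9% in SortIP of the Cx3cr1 line and 2.36% in HA and 16.5% in SortIP of the Sall1 line. C1qa averaged 1833 ± 202 CPM in Sall1 HA and 16595 ± 908 CPM in Sall1 SortIP, so that its fold differed by 3.82 ± 0.23 (adjusted p = 3.2e-34). Border macrophage genes were higher in 13 of 15. Pf4 averaged 3.20 ± 1.58 CPM in Sall1 HA and 14.1 ± 5.31 CPM in Sall1 SortIP, and its fold differed by 7.23 ± 0.57 (adjusted p = 1.3e-24). Astrocyte genes took 0.289% of counts in HA and 0.154% in SortIP of the Cx3cr1 line, and 2.96% in HA and 0.156% in SortIP of the Sall1 line. For neuronal genes 24 of 31 did not pass in this test, and for Nrgn the fold did not differ detectably (-0.17 ± 0.44, adjusted p = 0.81).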

How the data were processed

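The deposited table holds raw counts over exons for 24411 genes in 32 libraries, without normalization by the authors. The tools HOMER, HISAT 0.1.5 and bcl2fastq and the build mm9 are named per the submitters' processing notes. Treatment of multiply mapped reads and the strand setting are not given in the sources used here, so genes with near-identical copies and overlapping genes are uncertain. Rows without a gene symbol held 0 counts.

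Groups follow description and column name. Each comparison was fitted with edgeR 4.0.16 (R 4.3.3) on the compared libraries only: TMM scaling, the default low-count filter (minimum count 10), a robust quasi-likelihood fit and the mouse number as a block, because each brain was divided into 4 samples per the series' design. Deviations of HA and SortIP libraries of the same mouse correlated by 0.011 to 0.061, and those of SortIP and Sort by -0.010 to 0.166. Between different mice of the Cx3cr1 line, HA and SortIP correlated by -0.053 to 0.035, and SortIP and Sort by -0.148 to 0.111. These ranges overlap, so the pairing by number rests on the labels. The Sall1 line's mouse numbers were a block within the line in the interaction fit. DESeq2 1.42.0 was an alternative. Levels are CPM over all gene counts. The 48 pairs of libraries within a group differed beyond sampling noise, with chi-square values of 1.58 to 22.5 per degree of freedom. Reads carry no molecular identifiers, so intervals and floors (3 counts, confidence level 95%) cover counting error only.

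The fits were tested on simulated counts with known changes. Transcript length came from the deposited table, and GC content from transcripts of the reference annotation, whose build differs from mm9 and from which no coordinates were taken. Their trends were fitted with lowess (span 0.3).

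The members, the gene lists and the tests were chosen with earlier results of these data known. Genes were named by a rule. It takes Jun, Zfp36, Il1a, Tnf, Cx3cr1 and Rpl22, and any measured mRNA decay factor, cytokine or chemokine. Each other list adds its 4 most significant members on the side of its median and up to 2 called ones on the other side. It also takes the 10 largest changes each way, and the 5 largest each way in the sorted class, among called genes whose mean log2 CPM is 4 or more and whose groups are separate. Tmem119, and genes with 0 counts in HA other than Tnf and Casp1, were chosen after their values were seen.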

Additional observations from a re-analysis of the deposited data

Results flagged for a closer look

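In 8 of the 89 groups of 4 libraries tested, 1 library stood apart from the other 3. Chance alone would flag about 1 in 20 groups, but this rate does not hold for counts near 0. Where 3 libraries hold 0, any count in the other library is flagged, as for Il1a, Trim30a and Clec10a. The number 8 is therefore not set against that rate. In HA, mouse 1 had 1.74 CPM of Il1a and 8.70 CPM of Trim30a where the other 3 mice had 0, and 14902 CPM of Apoe against 13215 to 13492 CPM in the others. Mouse 3 in HA had 25.2 CPM of Ccl3, against 3.48 to 6.98 CPM in the others, and 156 CPM of Ccl5, against 66.3 to 76.6 CPM. In SortIP, mouse 3 had 144 CPM of Ifi27l2a (others 54.1 to 67.9 CPM), and mouse 4 had 2.95 CPM of Clec10a (others 0) and 81.2 CPM of Mbp (others 62.3 to 63.0 CPM). The Il1a value is 1 count, so it lies within counting error of 0.

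The log2 fold of HA over SortIP differed between the Cx3cr1 and the Sall1 line in edgeR's interaction test for 12 of the 17 genes examined in both lines. Given as Cx3cr1 minus Sall1, it was more negative for Fos (-2.69), Dusp1 (-2.07) and Egr1 (-1.97). It was more positive for the RNA-binding protein gene Zfp36l2 (2.36), for Ccl3 (3.39), Ccl4 (2.35) and Rgs2 (2.00), and for the macrophage genes Cx3cr1 (4.11), P2ry12 (3.39), C1qa (3.82), Pf4 (7.23) and H2-Aa (5.96). Their adjusted p ran up to 0.004. Of all 10290 genes in that test 32.3% were called, and the 17 genes were chosen for the text, so 12 of 17 is not a rate.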

How the results depend on the processing

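The 5282 calls between HA and SortIP were 2461 higher and 2789 lower without the mouse as a block, so the pairing by mouse moved the count little, and DESeq2 with the block gave 2143 and 2276. Leaving out 1 mouse gave 2225 to 2630 higher and 2540 to 2661 lower. A minimum count of 30 gave 1490 higher and 1593 lower of 4174 genes, and 1685 higher and 1810 lower for HA against Sort, because fewer genes were tested. Of 163 named genes measured, 157 were called, where 68.5% of all genes tested were. Over 2388 alternative values 61 lost the call, 9 gained it and 12 changed sign with a call in either fit. In 5 the sign changed by at least the SE without a call in either fit. The other 2301 were counted as the same, which includes any smaller change of sign without a call. The rule names many genes because they were called, so these counts do not show how stable calls are in general.

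With GC and length as an offset the sign changed, with a call in either fit, for Cnot7 (0.857), Mif (-0.245), Ccl6 (0.059), Ccl9 (1.195), Bbc3 (-0.117), C1qa (-0.130), Tyrobp (-0.221) and Bst2 (-0.182). With groups by title it changed in the same way for Il15 (-0.841), Il16 (0.158) and Ttr (-0.693), and with both sorted libraries of a mouse summed for Ttr (-0.312). With the GC and length offset the counts of called members moved by over 1.5 times in several lists, and the report gives these beside the heat shock, ribosomal and disease-associated lists. The cause was not tested.

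SortIP against Sort gave 293 higher and 278 lower with DESeq2, 354 and 1133 without TMM scaling (23.8% higher, against 49.6% with it), and 109 to 599 higher and 107 to 664 lower when 1 mouse was left out. In the Sall1 line it gave 284 and 266 with DESeq2, 356 and 1141 without scaling, 437 lower without the replicate block, and 353 to 462 higher and 349 to 544 lower when 1 mouse was left out. HA against IgG gave 2176 higher and 4926 lower without scaling (30.6% higher, against 43.8%). The difference between lines gave 1052 lower with DESeq2, 1149 without a filter, 1087 at a minimum count of 30 and 1115 with the GC and length offset, where 57.6%, 59.4%, 59.9% and 63.9% of calls were higher, against 46.5% in the reported fit and 56.6% without scaling. HA is the shallowest group, which limits all statements on genes at or near 0 there.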
